A study of Mus musculus with 830 samples.

Results

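Genes with little described role in the embryonic gut or pancreas were followed: Dbpht2, 1700086L19Rik, Vwa5b2, Gnao1, Sphkap, Lrrtm3, Pla2g2f and Ttll7. They are 8 of the 26313 gene rows of the read count table. They were listed because their reads were low in mouse embryo cells that carry GFP on both Neurog3 alleles, so the difference between HM and HZ cells below is a description of how they were chosen and carries no test. The questions that the choice did not settle are how the genes differ among themselves, in which cells reads remained, and where each comes on relative to Neurog3, Fev and Gcg.

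The cells came from endoderm and gut of mouse embryos of the strain C57BL/6XC3H, were stained for the epithelial surface protein EpCAM, and were sorted by flow cytometry into Smart-seq3xpress, a plate-based full-length single-cell RNA-seq method. Each of the 830 samples is 1 cell. HM cells (171) had the genotype Ngn3-GFP/GFP, so neither Neurog3 allele was free of GFP. Ngn3Cre cells (333) had the genotype Ngn3-Cre; Ai6, in which Cre made under Neurog3 control switches on a lasting reporter, so that descendants of Neurog3 cells stay marked. HZ cells (326) had the genotype Ngn3-GFP/+. Stages were 15, 18, 21, 24 and 27 somites, the number of paired blocks along the embryo's trunk. The sources used here do not say whether the sort also used GFP or the Ai6 reporter, whether Ngn3-Cre replaces an allele, or from which embryo a cell came.

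Neurog3 encodes a basic helix-loop-helix transcription factor that is switched on briefly in endoderm cells and commits them to a hormone-producing fate in the pancreas and gut. Such factors bind short DNA motifs called E-boxes. Neurog3 cells then pass on to programmes that include Fev, a transcription factor of endocrine precursors, and Gcg, which encodes glucagon, the hormone of alpha cells. Mice without Neurog3 make no pancreatic endocrine cells.

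Counts were summed over the cells of a genotype and stage, because no embryo is named. This gave 14 pools, and the 11 with at least 10 cells entered the fits. Their depth ran from 8299225 to 70763553 reads, and single cells held 1400 to 2525083 reads with a median of 452597. Levels are given as CPM, the usual depth-scaled read count, and the threshold is an adjusted p of 0.05 in edgeR's quasi-likelihood test. Neurog3 itself was at 5.95 to 11.5 CPM in the HM pools, 153 to 557 CPM in the Ngn3Cre pools and 81.1 to 133 CPM in the HZ pools, and these ranges do not overlap. In a pool, fewer cells that use a gene and less RNA per cell cannot be told apart. The 5 epithelial markers summed to 2695.2 to 4099.3 CPM in HM pools, 1082.9 to 2005 CPM in Ngn3Cre pools and 786 to 3298.4 CPM in HZ pools. The 13 neural markers summed to 7.63 to 1177 CPM in HM pools, with Foxd3 at 0, 2325.2 to 4187.4 CPM in Ngn3Cre pools and 780 to 2236.1 CPM in HZ pools. Neural markers thus differed with the genotypes, though their sum is not a count of neural cells, as the cell states below show. The part of neural cells in the levels below was not tested beyond leaving out the cells with neural crest markers.

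The pair Dbpht2 and 1700086L19Rik are neighbours on chromosome 12. In GENCODE vM21 on GRCm38, 1700086L19Rik lies on the plus strand at chr12:74284242-74295945 and is a transcribed unitary pseudogene. Dbpht2 follows on the same strand at chr12:74296668-74302008 as a long intergenic non-coding RNA, 722 bases further on. RefSeq classes Dbpht2 as protein coding and 1700086L19Rik as a long non-coding RNA, and leaves 1523 bases between them. No function of either is given here. The windows from 250 bases before to 50 bases after the RefSeq starts (RefSeq, GRCm38.p6, plus strand, chr12:74284026-74284325 and chr12:74297224-74297523) are shown because the reads of this pair moved together. Capitals mark the E-boxes CAGATG and CAGCTG on either strand, so CATCTG is CAGATG on the other strand.
1700086L19Rik: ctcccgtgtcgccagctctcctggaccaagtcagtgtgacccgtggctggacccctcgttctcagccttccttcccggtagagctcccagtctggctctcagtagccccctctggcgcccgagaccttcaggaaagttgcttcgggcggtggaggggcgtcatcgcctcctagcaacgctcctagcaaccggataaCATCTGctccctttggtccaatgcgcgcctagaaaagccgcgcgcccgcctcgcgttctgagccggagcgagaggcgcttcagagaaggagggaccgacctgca
Dbpht2: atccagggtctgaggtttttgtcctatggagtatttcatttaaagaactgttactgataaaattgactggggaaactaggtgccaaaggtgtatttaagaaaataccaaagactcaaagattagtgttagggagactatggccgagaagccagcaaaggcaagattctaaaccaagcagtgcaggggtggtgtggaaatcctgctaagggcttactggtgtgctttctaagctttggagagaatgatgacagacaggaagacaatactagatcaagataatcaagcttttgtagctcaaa
The first window holds 1 such E-box, at position -54 from the start, and these letters are not in the second window. The second window lies inside Dbpht2 as GENCODE draws it, and the bases before the GENCODE start were not searched. CAGATG was found in 17.2% of 32851 promoter windows of the same length and CAGCTG in 16.3%. The looser form CANNTG, which includes both, was found in 72.3% of windows. Among the 9 windows of the 8 genes (Vwa5b2 has 2), 2 held CAGATG, 2 held CAGCTG and 7 held CANNTG.

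Dbpht2 was the most abundant of the 8 genes and 1700086L19Rik was close to it per length. In the Ngn3Cre pools the authors' TPM, which corrects for gene length, averaged 599 ± 83 for Dbpht2 and 503 ± 146 for 1700086L19Rik (SD, n = 3), so that the difference between them was smaller than the spread. Vwa5b2 at 129 ± 31.5 TPM and Gnao1 at 110 ± 23.4 TPM came next, and differed from each other by less than their spread. Pla2g2f had 62.9 ± 14 TPM and Lrrtm3 41.1 ± 16.3 TPM. Ttll7 at 16.8 ± 1.89 TPM and Sphkap at 15.5 ± 3.01 TPM were lowest and also lay within each other's spread.

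In what follows the pools are given by stage, 15, 18, 21 and 24 somites for HM, 21, 24 and 27 somites for Ngn3Cre, and 18, 21, 24 and 27 somites for HZ. Dbpht2 had 9.28, 0.867, 0.786 and 4.62 CPM in the HM pools, 852, 1251 and 1046.6 CPM in the Ngn3Cre pools, and 181, 597, 1008.6 and 748 CPM in the HZ pools. 1700086L19Rik had 1.57, 0, 0.262 and 1.46 CPM in the HM pools, 393, 316 and 196 CPM in the Ngn3Cre pools, and 42.4, 173, 284 and 145 CPM in the HZ pools. Every HM pool lay below every HZ and Ngn3Cre pool for both genes, and among HZ pools the one of 18 somites was lowest. With stage held as a factor, the fitted log2 difference of HM from HZ was -8.29 ± 0.42 (SE) for Dbpht2 and -8.31 ± 0.56 for 1700086L19Rik. Across the table, 254 of 18420 genes (1.38%) were past the threshold and lower in HM than in HZ, and 17 (0.0923%) were higher. All 8 members were among the lower genes, which is how they were chosen.

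**Figure D1:**
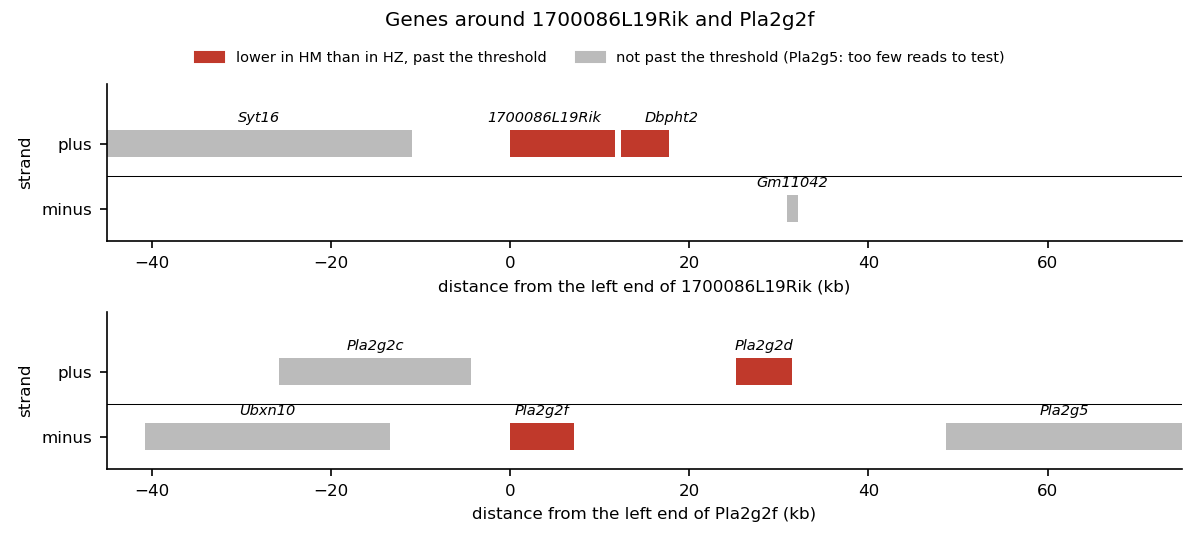
Genes around 1700086L19Rik and Dbpht2 on chromosome 12 (top) and around Pla2g2f on chromosome 4 (bottom), drawn to scale by distance in kilobases, with the plus strand above the line and the minus strand below it. Genes lower in HM than in HZ past the threshold are red, and Syt16 and Pla2g5 run on past the plot's edges. The pair and Pla2g2f were chosen on that contrast, while Pla2g2d, 18108 bases from Pla2g2f, was not among the 8.

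Genes on either side of the pair had few reads. Syt16, a synaptotagmin gene that ends 10974 bases before 1700086L19Rik, averaged 1.43 ± 1.68 CPM in HM pools and 2.07 ± 0.587 CPM in HZ pools (SD, n = 4 each). Gm11042, 13101 bases beyond Dbpht2, averaged 0.0539 ± 0.0631 CPM in HM pools and 0.0355 ± 0.071 CPM in HZ pools. Neither passed the threshold. Reads of 1700086L19Rik per 100 reads of Dbpht2 were 16.9, 0, 33.3 and 31.5 in the HM pools, 46.2, 25.2 and 18.8 in the Ngn3Cre pools, and 23.4, 29, 28.2 and 19.3 in the HZ pools. The HM ratios rest on 10 to 241 Dbpht2 reads and spread around those of the other genotypes. Within cells the pair went together: of the 244 Ngn3Cre cells with 1700086L19Rik at 10 CPM or more, 96.7% also had Dbpht2, and the share was 93.1% in HZ cells. Over 289 Ngn3Cre cells of at least 100000 reads, log2(CPM + 1) of Dbpht2 and 1700086L19Rik had a Pearson correlation of 0.854, and 0.866 over 281 HZ cells. Cells of a pool share their embryos and library preparation, and without a stated use of strand the reads of close neighbours may be split between them.

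**Figure D2:**
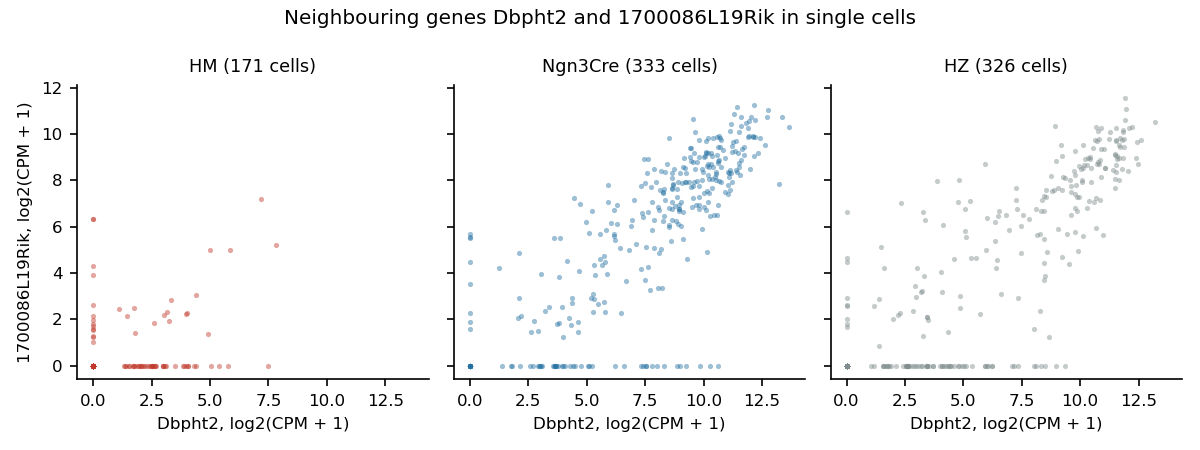
Level of 1700086L19Rik against Dbpht2 in single cells, both as log2(CPM + 1), with 1 point per cell and a panel per genotype. Ngn3Cre and HZ cells lie along a rising band, and most HM cells lie at 0 on both axes.

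The second group holds genes of signalling. Gnao1 encodes G alpha o, the subunit of a G protein that passes on signals of inhibitory receptors, is abundant in neurons and restrains insulin release in mouse beta cells. It lies at chr8:93809966-93969388 on the plus strand. Gnao1 had 3.49, 0, 1.99 and 2.09 CPM in the HM pools, 233, 243 and 171 CPM in the Ngn3Cre pools, and 19.1, 54, 112 and 93.4 CPM in the HZ pools. The HM pools lay below all others and the 3 Ngn3Cre pools above all HZ pools. Its fitted log2 difference of HM from HZ was -5.67 ± 0.47. Sphkap encodes a protein that anchors protein kinase A, the cyclic AMP-dependent kinase, and lies at chr1:83254139-83408200 on the minus strand. Sphkap had 3.49, 0, 0.105 and 0.326 CPM in the HM pools, 72.1, 78.9 and 57.6 CPM in the Ngn3Cre pools, and 11.1, 21.6, 49.6 and 56.2 CPM in the HZ pools. The genotypes HM and HZ did not overlap, and the fitted log2 difference was -7.63 ± 0.54.

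Lrrtm3 and Ttll7 are best known from neurons. Lrrtm3 encodes a leucine-rich repeat protein of the postsynaptic membrane that binds neurexins, and lies at chr10:63928472-64090277 on the minus strand inside Ctnna3, which runs on the other strand. Lrrtm3 had 1.69, 0, 0 and 0.249 CPM in the HM pools, 141, 61.7 and 66.1 CPM in the Ngn3Cre pools, and 20.9, 59.4, 48.9 and 44.2 CPM in the HZ pools. In 2 of the HM pools there was no Lrrtm3 read, and the fitted log2 difference of -8.69 ± 0.77 therefore depends on the prior count. Ttll7 encodes a tubulin polyglutamylase, an enzyme that adds glutamate chains to microtubules, and lies at chr3:146852367-146984009 on the plus strand. Ttll7 had 5.78, 0.173, 1.7 and 2.41 CPM in the HM pools, 70.2, 51.7 and 49.8 CPM in the Ngn3Cre pools, and 7.93, 35, 37.9 and 25.7 CPM in the HZ pools. Its HM pool of 15 somites came nearest to an HZ pool of any tested pair, and its fitted log2 difference of -4.30 ± 0.36 was the smallest of the 8.

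Pla2g2f encodes a secreted phospholipase A2, which releases fatty acids from phospholipids outside the cell, and lies in a cluster of such genes at chr4:138750533-138757626 on the minus strand. Its promoter window (RefSeq, GRCm38.p6, minus strand, chr4:138757549-138757848) is shown because it held the most E-boxes of the 8 genes. Capitals mark CAGCTG and CATCTG as above.
Pla2g2f: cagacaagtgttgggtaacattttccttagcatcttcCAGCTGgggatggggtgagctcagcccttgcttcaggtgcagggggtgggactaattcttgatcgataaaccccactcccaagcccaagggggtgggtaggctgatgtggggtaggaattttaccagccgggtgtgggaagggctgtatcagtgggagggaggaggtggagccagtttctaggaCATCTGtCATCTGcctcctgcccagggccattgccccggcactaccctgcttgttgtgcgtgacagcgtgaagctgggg
The E-boxes start at positions -213, -29 and -22 from the start. Pla2g2f had 1.45, 0, 0.105 and 0.479 CPM in the HM pools, 131, 63.7 and 79.8 CPM in the Ngn3Cre pools, and 8.93, 40.7, 43.2 and 28.1 CPM in the HZ pools. HM and HZ pools did not overlap, and the fitted log2 difference was -7.15 ± 0.60. Vwa5b2, a gene with a von Willebrand factor A domain and no role that could be stated with confidence, lies at chr16:20589471-20605377 on the plus strand. Vwa5b2 had 1.08, 0.173, 2.88 and 5.48 CPM in the HM pools, 421, 278 and 225 CPM in the Ngn3Cre pools, and 51, 134, 165 and 112 CPM in the HZ pools. Every HM pool was below every other tested pool, and the fitted log2 difference was -5.61 ± 0.47. These directions and sides of the threshold held for all 8 genes in each of the 18 alternatives tried. The genes were chosen on this contrast, so this is a description and not a test.

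**Figure D3:**
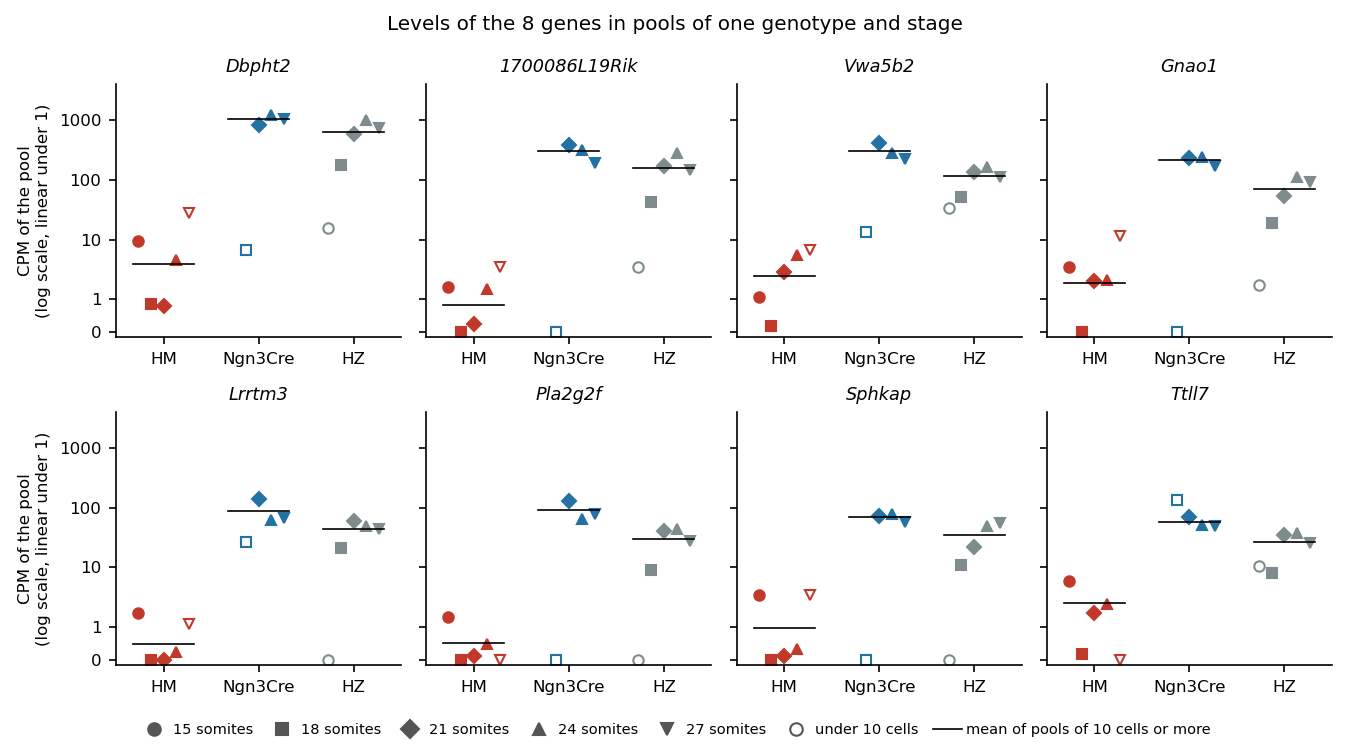
Levels of the 8 genes in CPM on an axis that is logarithmic above a small linear range, with 1 point per pool of a genotype and stage (open points are pools of fewer than 10 cells, outside the fits, and lines are the means of the other pools). The tested HM pools lie below the tested Ngn3Cre and HZ pools in every panel.

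Among relatives and partners of the 8 genes, Gng4, Pla2g2d, Ctnna3, Gng3 and Gnb1 were lower in HM. Of 42 paralogs, 38 were tested between HM and HZ and 1 was lower, and of 29 genes that work with the members or enclose them, all 29 were tested and 4 were lower, beside 1.38% of all genes tested. None was higher by edgeR's quasi-likelihood test, while 13 were lower and 4 higher at an unadjusted p under 0.05, and DESeq2 called 8 lower and none higher. The median log2 difference was -0.40 for paralogs and -0.39 for partners, beside -0.09 for all genes tested. Gng4, a G protein gamma subunit, had 1.08, 0, 0.0524 and 1.02 CPM in the HM pools, 181, 121 and 134 CPM in the Ngn3Cre pools, and 21.8, 86, 75.2 and 81.1 CPM in the HZ pools. It was lower in HM by a log2 difference of -7.46 ± 0.75 (adjusted p = 0.00127) and held in all 18 alternatives. Pla2g2d, another secreted phospholipase A2 on the opposite strand from Pla2g2f, had 3.74, 0, 0.603 and 2.09 CPM in the HM pools, 66.6, 30.9 and 28.2 CPM in the Ngn3Cre pools, and 14.3, 41.2, 40 and 11.9 CPM in the HZ pools. It was lower in HM by -5.22 ± 0.73 (adjusted p = 0.00859), also in all 18 alternatives, and HM and HZ did not overlap. Pla2g2c, of the same cluster, did not pass the threshold, and Pla2g5 had too few reads to be tested.

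The 3 other calls were less steady. Ctnna3, an alpha catenin gene whose reads cannot be kept apart from those of Lrrtm3 unless strand was used, had 0.12, 0, 0.131 and 0.326 CPM in the HM pools, 7.91, 16.5 and 13.2 CPM in the Ngn3Cre pools, and 9.53, 8.36, 4.56 and 4.32 CPM in the HZ pools. Its log2 difference of -5.40 ± 0.94 (adjusted p = 0.026) held in 13 of 18 alternatives, and was not past the threshold without the HM pool of 21 somites (-5.30, adjusted p = 0.11) or the HZ pool of 21 somites (-5.00, adjusted p = 0.142), or with the shared stages alone (-5.67, adjusted p = 0.165). Gng3, a neuronal G gamma gene, and Gnb1, a G beta gene of most cells, were lower by -2.31 ± 0.44 (adjusted p = 0.0358) and -0.87 ± 0.15 (adjusted p = 0.0261) and held in 10 and 12 of 18 alternatives. For both, HM and HZ pools overlapped. Gng3 had 1.39 to 19.1 CPM in HM pools and 12.9 to 47.8 CPM in HZ pools. Gnb1 had 950 to 3227.7 CPM in HM pools and 2018.3 to 3033.9 CPM in HZ pools. Without the HM or the HZ pool of 21 somites, 2 of the 5 calls were left, and without the Ngn3Cre pool of 21 somites 3. In each other family the most abundant relative did not pass the threshold. Gnai2, the usual inhibitory G alpha subunit, averaged 170 ± 30.9 CPM in HM pools (SD, n = 4) and 190 ± 25.6 CPM in HZ pools (SD, n = 4). Akap11, another kinase A anchor, averaged 43.5 ± 17.8 CPM in HM pools and 45.6 ± 8.05 CPM in HZ pools, and Ttll4, another polyglutamylase, 51.3 ± 7.64 CPM in HM pools and 43 ± 6.01 CPM in HZ pools. Lrrtm2, Vwa5a, Pla2g12a, Prkar1a (a regulatory subunit of protein kinase A) and Agtpbp1 (an enzyme that removes glutamates from tubulin) had log2 differences of -1.53, 0.80, 0.34, -0.40 and 0.79.

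In single cells the members were rarely present in HM. A member was counted as present at 10 CPM or more. Dbpht2 was present in 11.7% of HM cells (exact Clopper-Pearson 95% interval 7.29 to 17.5), 86.8% of Ngn3Cre cells (82.7 to 90.2) and 59.5% of HZ cells (54 to 64.9), where the intervals cover counting error only. Lrrtm3 was the rarest in HM, at 0.585% of HM cells, against 55.3% of Ngn3Cre cells and 43.6% of HZ cells. The other 6 genes were present in 1.75% to 8.19% of HM cells, 47.4% to 79.6% of Ngn3Cre cells and 27.3% to 54.3% of HZ cells. After each cell was thinned to 100000 reads, with 28 HM, 44 Ngn3Cre and 45 HZ cells too shallow and left out, a Dbpht2 read was found in 18.9% of HM cells, 90.7% of Ngn3Cre cells and 65.1% of HZ cells. A read of Lrrtm3 was then found in 1.4% of HM cells, 61.6% of Ngn3Cre cells and 47.3% of HZ cells, so the order of the genotypes was as before thinning. In the cells with liver markers, which are not expected to use these genes, Dbpht2 was present in 1 of 16 HM cells (6.25%) and 2 of 18 HZ cells (11.1%), with median depths of 1048066 and 450296.5 reads. In the 7 such Ngn3Cre cells Dbpht2 was present in 6, and these cells averaged 15846.9 CPM of Gcg.

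Counted together, 120 of 171 HM cells (70.2%) had none of the 8 genes, 2 had 4 or more and none had 6 or more. Of Ngn3Cre cells, 13 (3.9%) had none, 210 (63.1%) had 6 or more and 57 had all 8. Of HZ cells, 87 (26.7%) had none, 125 (38.3%) had 6 or more and 27 had all 8. The median cell had 0 of the 8 genes in HM, 6 in Ngn3Cre and 3 in HZ.

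**Figure D4:**
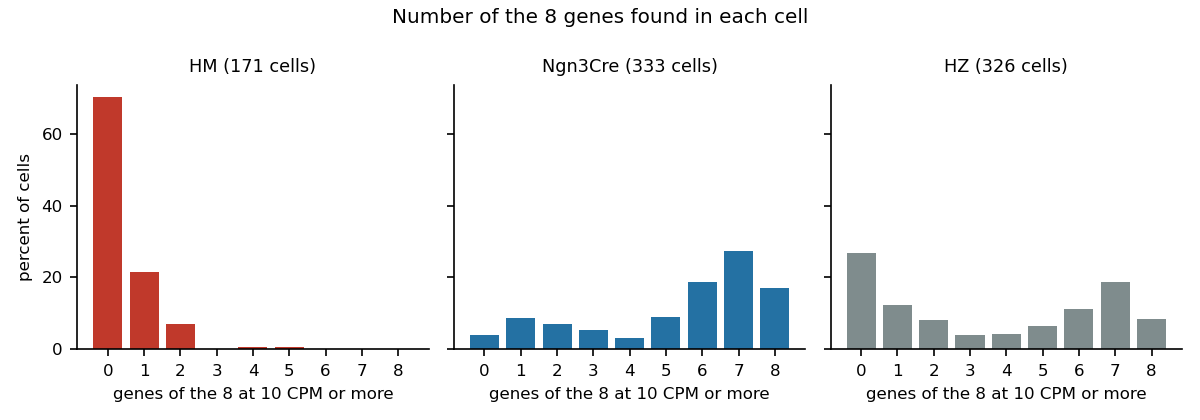
Share of cells, in percent, by how many of the 8 genes were at 10 CPM or more, with a panel per genotype. HM cells pile up at 0, and Ngn3Cre cells at 6 to 8.

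The reads left in HM were spread unevenly over genes and cells. Dbpht2 had 407 reads in 61 HM cells, of which 1 cell held 30.5%. Vwa5b2 had 419 reads in 39 HM cells and Gnao1 234 reads in 35, and the cell with the most held 19.6% and 10.7% of them. Ttll7 reads were in 26 HM cells and 1700086L19Rik reads in 31, with 19.9% and 19% in 1 cell. Sphkap had 56 reads in 13 HM cells, of which 1 cell held 28.6%. Lrrtm3 had 29 reads in 9 HM cells, of which 1 cell held 41.4%, and Pla2g2f had 41 reads in 8 cells, of which 1 held 41.5%. The HM cell with the most members had 5 of the 8, was from 24 somites, and had 224 CPM of Dbpht2, 66.8 CPM of Vwa5b2 and 68.6 CPM of Ttll7. It also had 11245 CPM of Ghrl, the gene of the hormone ghrelin, and 28.9 CPM of Neurog3. The next had 4 members, was from the small pool of 27 somites, and had 7558 CPM of Ghrl and 6.24 CPM of Neurog3. Both were thus rich in Ghrl reads. HM cells with 500 CPM of Ghrl or more and below the thresholds for Neurog3, Fev and Gcg had Dbpht2 in 6 of 17 (35.3%, 14.2 to 61.7), against 21 of 23 such Ngn3Cre cells (91.3%) and 31 of 39 such HZ cells (79.5%). Lrrtm3 was in none of these 17 HM cells, which allows up to 19.5%, and in 73.9% of the Ngn3Cre and 61.5% of the HZ cells.

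Cells of like Neurog3 level were then set side by side, whatever their levels of Fev and Gcg, so the cells may differ in state. Over all stages, 3 HM, 124 Ngn3Cre and 33 HZ cells had Gcg at 500 CPM or more. At 21 and 24 somites, 42 HM, 30 Ngn3Cre and 37 HZ cells had Neurog3 between 10 and 50 CPM. Dbpht2 was present in 4.76% of these HM cells, 86.7% of the Ngn3Cre cells and 83.8% of the HZ cells. Vwa5b2 was present in 11.9%, 66.7% and 70.3% of the HM, Ngn3Cre and HZ cells, and Gnao1 in 9.52%, 66.7% and 62.2%. Lrrtm3, Sphkap and Pla2g2f were in none of the 42 HM cells, which allows up to 8.41% each, and in 36.7% to 46.7% of the Ngn3Cre cells and 35.1% to 54.1% of the HZ cells. The Neurog3 reads of an HM cell come from alleles that carry GFP. Median depth was 678630.5 reads in these HM cells, 338238 in the Ngn3Cre cells and 254466 in the HZ cells.

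Between the other genotypes, all 8 genes had higher fitted levels in Ngn3Cre than in HZ, by log2 differences of 0.49 to 1.28, and none passed the threshold in edgeR's quasi-likelihood test. Gnao1 had the smallest p, with 1.23 ± 0.37 (p = 0.0086, adjusted p = 0.237), followed by Pla2g2f with 1.28 ± 0.42 (adjusted p = 0.27). At an unadjusted p under 0.05 there were 4 members, DESeq2 called 1 (Gnao1, adjusted p = 0.0298) and limma on TPM called 0. Of all genes, 1 (0.00543%) was higher in Ngn3Cre and 61 (0.331%) were lower. The HZ pools also entered the choice of the members, which favours genes that happened to be high in HZ.

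No member passed the threshold for a change with stage within a genotype. Slopes per somite on the log2 scale were -0.19 to 0.04 in Ngn3Cre and 0.08 to 0.27 in HZ, where all 8 were positive. The difference of slopes, Ngn3Cre minus HZ, was -0.37 to -0.18. edgeR's quasi-likelihood test called 0 of the 8 members, and none had an unadjusted p under 0.05 or was called by DESeq2. It also called 0 of all 17274 genes in each of the 3 slope tests, where 346, 1579 and 477 genes had an unadjusted p under 0.05 for the Ngn3Cre slope, the HZ slope and the difference. The smallest p of a member was 0.0781, for an HZ slope.

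Onset was followed in Ngn3Cre cells of 21, 24 and 27 somites, whose values did not choose the members. Each cell was placed in 1 of 4 states in turn: Gcg-high (Gcg at 500 CPM or more), otherwise Fev-high (Fev at 50 CPM or more), otherwise Neurog3-high (Neurog3 at 50 CPM or more), otherwise below all 3 thresholds. The below-threshold, Neurog3-high, Fev-high and Gcg-high states held 79, 76, 51 and 124 cells at these stages, and were summed to 12 pools of a state and stage. The states are ranges of marker level and not a measured time order. The members were chosen for low reads in HM, where 164 of 171 cells were below all 3 thresholds. That choice favours genes of the other states, so counts of members beside those of all genes are a description here and below. Adjacent comparisons share a state's pools. The below-threshold cells were a mixture: 48 of the 79 had neural crest markers, against 8 of the 76 Neurog3-high cells. Their 13 neural markers summed to 1939.4 to 8971.4 CPM, beside 2204.7 to 3282.6 CPM in Neurog3-high pools, 1594.5 to 2025.5 CPM in Fev-high pools and 565 to 823 CPM in Gcg-high pools. These sums did not follow the cells with neural crest markers, which were 3 of 51 Fev-high and 20 of 124 Gcg-high cells. Ghrl averaged 9067.7 ± 4276.9 CPM in below-threshold pools (SD, n = 3), so they also hold hormone cells. The 6 mesenchyme markers summed to 144 to 587 CPM in below-threshold pools, beside 21.6 to 39.2 CPM in Neurog3-high pools. The part of these other cells in the first step below was not tested beyond the settings named there.

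**Figure D5:**
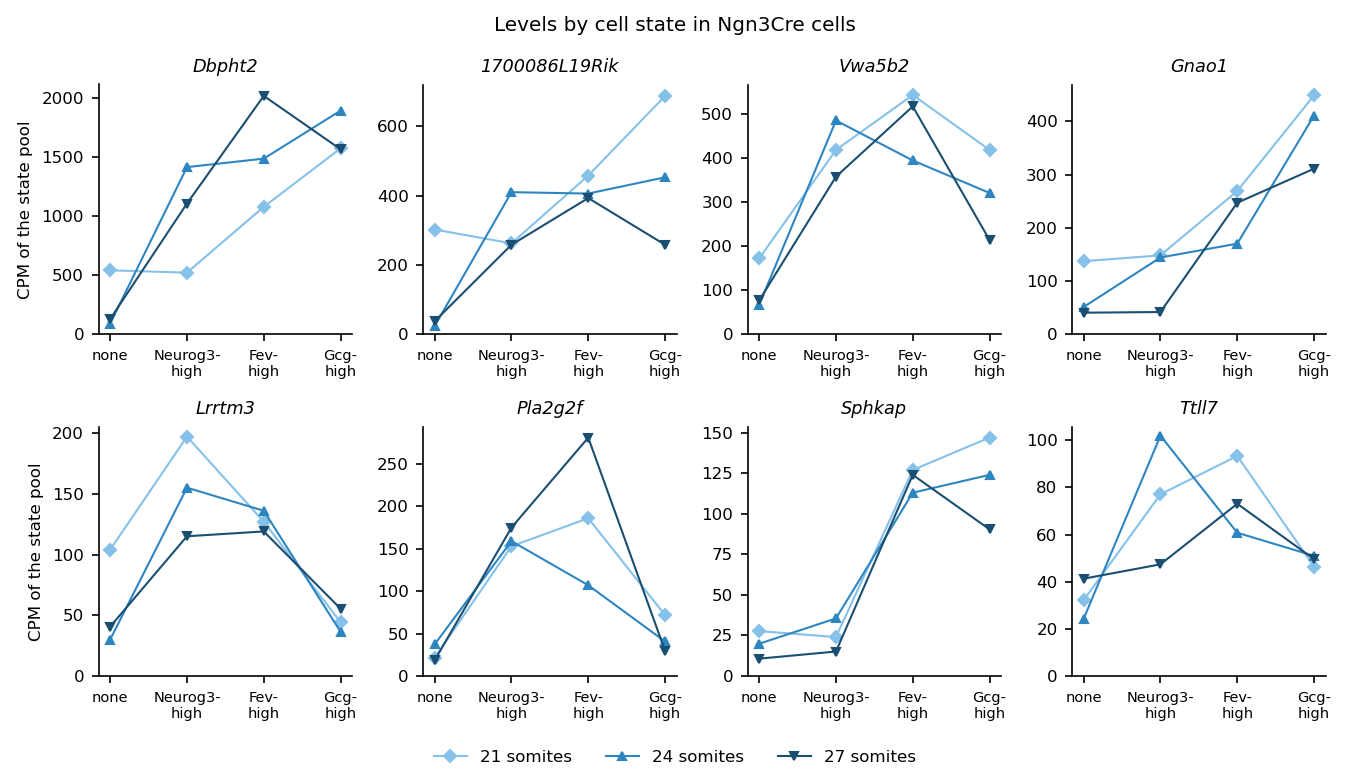
CPM of the 8 genes by cell state in Ngn3Cre cells, with 1 point per pool and a line joining the pools of 21, 24 or 27 somites; "none" marks cells below all 3 thresholds. Lrrtm3 and Pla2g2f are high in the Neurog3-high and Fev-high states and lower in the Gcg-high state, Sphkap is high from the Fev-high state on, and Gnao1 is highest in the Gcg-high state.

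Vwa5b2, Pla2g2f, Lrrtm3 and Dbpht2 were higher in Neurog3-high than in below-threshold pools. These are 4 of the 8 members, where 335 of 15214 genes (2.2%) were higher and 284 (1.87%) lower. The choice of the members favours this direction, so the counts are not independent of it. Vwa5b2 had 419, 486 and 358 CPM in the Neurog3-high pools of 21, 24 and 27 somites, against 172, 66.3 and 76.5 CPM in the below-threshold pools. The groups did not overlap, and the log2 difference was 2.08 ± 0.26 (SE; edgeR's quasi-likelihood test with Benjamini-Hochberg adjustment, adjusted p = 0.000452). Vwa5b2 held in all 13 alternatives. Among the 13, the setting of at least 10 cells per state pool left out no pool. It repeats the main fit in every count out of 13 given here and below. Pla2g2f had 153, 159 and 175 CPM in the Neurog3-high pools, against 21.7, 37.4 and 18.5 CPM in the below-threshold pools, a log2 difference of 2.59 ± 0.40 (adjusted p = 0.00224). It was missed in 1 of 13 alternatives, without cells with neural crest markers (2.14, adjusted p = 0.0641).

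Lrrtm3 had 197, 155 and 115 CPM in the Neurog3-high pools, against 104, 30 and 40.6 CPM in the below-threshold pools, and the groups did not overlap. Its log2 difference was 1.5 ± 0.33 (adjusted p = 0.0173), and it was past the threshold in 9 of 13 alternatives. Without the 24-somite pools it was 1.13 (adjusted p = 0.223), and without cells with neural crest markers 1.16 (adjusted p = 0.056). With lower state thresholds it was 1.73 (adjusted p = 0.102) and in HZ cells 2.04 (adjusted p = 0.284). Dbpht2 had 519, 1411.8 and 1103.9 CPM in the Neurog3-high pools, against 539, 88.5 and 127 CPM in the below-threshold pools. At 21 somites the states thus overlapped. Its log2 difference of 2.1 ± 0.56 (adjusted p = 0.0469) was past the threshold in 4 of 13 alternatives, and was 1.25 (adjusted p = 0.399) without the 24-somite pools, 1.63 (adjusted p = 0.217) without the 27-somite pools and 1.38 (adjusted p = 0.128) without cells with neural crest markers.

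The other 4 members did not pass the threshold at this step. Ttll7 had 77.1, 102 and 47.4 CPM in the Neurog3-high pools, against 32.2, 24.3 and 41.3 CPM in the below-threshold pools (log2 difference 1.17 ± 0.33, adjusted p = 0.0653), and passed without cells with neural crest markers (1.41, adjusted p = 0.0221) and in 4 other alternatives, among them no filter on low counts (1.17, adjusted p = 0.0239). 1700086L19Rik had 262, 410 and 258 CPM in the Neurog3-high pools, against 302, 22.9 and 37 CPM in the below-threshold pools. As for Dbpht2, the 21-somite pools overlapped, and without them its log2 difference of 1.96 ± 0.58 (adjusted p = 0.0773) became 3.39 (adjusted p = 0.00184). With no filter on low counts it was also past the threshold (1.96, adjusted p = 0.000184). Gnao1 had 148, 144 and 41.4 CPM in the Neurog3-high pools, against 137, 50.9 and 40.1 CPM in the below-threshold pools (0.58 ± 0.35, adjusted p = 0.432). Against below-threshold cells with Ghrl under 500 CPM only, a setting added after the values were seen, Gnao1 was higher by 1.70 (adjusted p = 0.00785), and in HZ cells by 1.90 (adjusted p = 0.0189). Sphkap had 24, 35.5 and 15.1 CPM in the Neurog3-high pools, against 27.7, 19.9 and 10.7 CPM in the below-threshold pools, which overlap (0.36 ± 0.30, adjusted p = 0.60), and it passed in none of 13 alternatives.

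Sphkap was the member that was higher in Fev-high than in Neurog3-high pools. It is 1 of the 8, where 13 genes (0.0854%) were higher and 25 (0.164%) lower. Sphkap had 127, 113 and 124 CPM in the Fev-high pools, against 24, 35.5 and 15.1 CPM in the Neurog3-high pools, and the groups did not overlap. Its log2 difference was 2.38 ± 0.31 (adjusted p = 0.00569). The call was lost without the 21-somite pools (2.37, adjusted p = 0.119), without the 27-somite pools (2.02, adjusted p = 0.0546) and in HZ cells (2.03, adjusted p = 0.692). HZ cells had Fev-high pools at 2 stages only, and 0 of 14490 genes were past the threshold at this step there. Sphkap was present in 78.4% of Fev-high cells (64.7 to 88.7) and 31.2% of Neurog3-high cells (21.1 to 42.7). Among Fev-high cells it was present in 72.7% of the 11 with Neurog3 below 50 CPM and 80% of the 40 with Neurog3 at 50 CPM or more. Gnao1 had 269, 170 and 247 CPM in the Fev-high pools, against 148, 144 and 41.4 CPM in the Neurog3-high pools, which do not overlap (1.20 ± 0.35, adjusted p = 0.222). DESeq2 called Gnao1 as well (1.22, adjusted p = 0.0173). The other 6 members had log2 differences of -0.24 to 0.59.

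Lrrtm3 and Pla2g2f were lower in Gcg-high than in Fev-high pools. They are 2 of the 8 members, where 168 genes (1.1%) were lower and 92 (0.605%) higher, and the median of all genes was 0.11. Lrrtm3 had 44.2, 36.4 and 55.4 CPM in the Gcg-high pools, against 127, 136 and 119 CPM in the Fev-high pools, a log2 difference of -1.47 ± 0.33 (adjusted p = 0.033). Without the 21-somite pools it was -1.48 (adjusted p = 0.0865) and without the 24-somite pools -1.25 (adjusted p = 0.22). It was also missed in HZ cells (-1.10, adjusted p = 0.654), with lower state thresholds (-1.39, adjusted p = 0.366) and with low-Ghrl below-threshold cells alone (-1.54, adjusted p = 0.151). Pla2g2f had 71.8, 40.7 and 29.7 CPM in the Gcg-high pools, against 186, 107 and 281 CPM in the Fev-high pools, a log2 difference of -2.02 ± 0.40 (adjusted p = 0.0158). Without the 27-somite pools it was -1.41 (adjusted p = 0.131), without cells with neural crest markers -1.92 (adjusted p = 0.141), with lower state thresholds -1.59 (adjusted p = 0.409), and in HZ cells 0.15 (adjusted p = 0.982), where the direction turned. Neither gene's groups overlapped in Ngn3Cre cells. The HZ fit rested on Fev-high pools of 2 stages only.

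Set directly against Neurog3-high pools, a comparison added after the steps were seen, Gcg-high pools had less Lrrtm3 and Pla2g2f and more Sphkap and Gnao1. These are 2 members among 349 lower genes (2.29%) and 2 among 170 higher genes (1.12%). Gnao1 had 449, 411 and 311 CPM in the Gcg-high pools, against 148, 144 and 41.4 CPM in the Neurog3-high pools (1.94 ± 0.35, adjusted p = 0.00517), and held in 12 of 13 alternatives, with 2.06 (adjusted p = 0.0516) without the 21-somite pools. Sphkap had 147, 124 and 90.4 CPM in the Gcg-high pools, against 24, 35.5 and 15.1 CPM in the Neurog3-high pools (2.33 ± 0.31, adjusted p = 0.000407), and held in 12 of 13, with HZ cells the exception (2.76, adjusted p = 0.187). For Lrrtm3 the log2 difference was -1.71 ± 0.33 (adjusted p = 0.00768), and without the 21-somite or 24-somite pools -1.56 (adjusted p = 0.0603) or -1.51 (adjusted p = 0.0673). For Pla2g2f it was -1.77 ± 0.39 (adjusted p = 0.0181), and without the 21-somite or 27-somite pools -2.24 (adjusted p = 0.0518) or -1.51 (adjusted p = 0.0654). Each held in 8 of 13 alternatives. In HZ cells Pla2g2f was at -0.46 (adjusted p = 0.745) and Lrrtm3 at -1.08 (adjusted p = 0.52), and without cells with neural crest markers Pla2g2f was at -1.62 (adjusted p = 0.163). With lower state thresholds they were at -1.44 (adjusted p = 0.35) and -1.29 (adjusted p = 0.30), and Lrrtm3 was at -1.79 (adjusted p = 0.06) in the fit with low-Ghrl below-threshold cells alone. In cells the shares ran the same way, with Lrrtm3 in 44.4% of Gcg-high and 89.6% of Neurog3-high cells, and Pla2g2f in 43.5% of Gcg-high and 64.9% of Neurog3-high cells.

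Dbpht2, 1700086L19Rik, Vwa5b2 and Ttll7 did not pass the threshold between any of the Neurog3-high, Fev-high and Gcg-high states. Over these 3 states in that order, Dbpht2 averaged 1011.6 ± 454, 1524.4 ± 471 and 1674 ± 187 CPM (SD, n = 3 each), and 1700086L19Rik 310 ± 86.6, 419 ± 34.4 and 466 ± 215 CPM. Vwa5b2 averaged 421 ± 64, 486 ± 79.6 and 318 ± 103 CPM, and Ttll7 75.5 ± 27.3, 75.8 ± 16.5 and 49 ± 2.36 CPM. A p above the threshold in 12 pools does not show that these levels were equal.

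Relatives of Gnao1 and partners of Sphkap also differed between the states. Gnas, the stimulatory G alpha subunit, averaged 266 ± 62.2 CPM in Gcg-high pools and 34.6 ± 17.9 CPM in Neurog3-high pools (SD, n = 3 each), a log2 difference of 2.98 ± 0.36 (adjusted p = 0.000208) that held in all 13 alternatives. Gnai1, an inhibitory G alpha subunit, averaged 86.5 ± 29.4 CPM in Gcg-high pools and 18 ± 8.1 CPM in Neurog3-high pools (2.31 ± 0.35, adjusted p = 0.00125), and held in 12 of 13, with lower state thresholds the exception (adjusted p = 0.0781). Prkaca and Prkacb, the catalytic subunits of the kinase that Sphkap's product anchors, were higher in Gcg-high pools by 0.86 ± 0.21 (adjusted p = 0.0377) and 1.32 ± 0.32 (adjusted p = 0.0325), and held in 7 and 6 of 13. Each was lost when any of the 3 stages was left out, at adjusted p of 0.121, 0.149 and 0.226 for Prkaca and 0.0769, 0.196 and 0.173 for Prkacb without 21, 24 and 27 somites. Of the 62 paralogs and partners tested between Gcg-high and Neurog3-high pools, these 4 were higher, and Pla2g2d and Gng2 were lower. Of all genes, 1.12% were higher and 2.29% lower, and the count of lower genes here is near that share. At the Gcg step, where 0.605% of all genes were higher, Gnas was also higher (1.39, adjusted p = 0.0498). Gnas held there in 4 of 13 alternatives, and was lost without any 1 stage, at adjusted p of 0.238, 0.0629 and 0.141 without 21, 24 and 27 somites.

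Like its neighbour Pla2g2f, Pla2g2d was higher in Neurog3-high than in below-threshold pools and lower in Gcg-high than in Neurog3-high pools. In Fev-high pools Pla2g2d averaged 52.2 ± 18.4 CPM (SD, n = 3), below its Neurog3-high average. Pla2g2f averaged 191 ± 87.1 CPM there, beside 162 ± 11.4 CPM in Neurog3-high pools, and neither gene was past the threshold at the Fev step. Pla2g2d averaged 93.1 ± 19 CPM in Neurog3-high pools and 21 ± 8.43 CPM in below-threshold pools, a log2 difference of 2.14 ± 0.44 (adjusted p = 0.0122) that was not past the threshold without the 21-somite (2.30, adjusted p = 0.0635) or 24-somite pools (2.08, adjusted p = 0.0775), or in HZ cells (2.44, adjusted p = 0.184). It averaged 11.7 ± 6.79 CPM in Gcg-high pools, which was lower than in Neurog3-high pools by -2.98 ± 0.46 (adjusted p = 0.00148; 11 of 13 alternatives), with -1.24 (adjusted p = 0.489) in HZ cells. The correlation of Pla2g2f with Pla2g2d over the 289 Ngn3Cre cells was 0.36, well below that of the chromosome 12 pair, and 53.8% of Ngn3Cre cells with Pla2g2f also had Pla2g2d. Of 62 paralogs and partners tested between Neurog3-high and below-threshold pools, 3 were past the threshold: Pla2g2d, Gng4 and Gnb4. Of all genes, 2.2% were higher and 1.87% lower. Gng4 was higher in Neurog3-high than in below-threshold pools, with 232 ± 50.5 CPM and 69.1 ± 9.7 CPM (1.74 ± 0.33, adjusted p = 0.00701), and held in 10 of 13 alternatives. It was missed without cells with neural crest markers (1.11, adjusted p = 0.0572), with lower state thresholds (1.58, adjusted p = 0.179) and without the 24-somite pools (1.84, adjusted p = 0.0545). Gnb4 was lower there, at 3.11 ± 2.73 CPM in Neurog3-high pools and 23.4 ± 6.52 CPM in below-threshold pools (-3.67 ± 0.96, adjusted p = 0.0429), in 5 of 13 alternatives, and was lost without the 21-, 24- or 27-somite pools (adjusted p = 0.214, 0.126 and 0.117). Gng2 was lower in Gcg-high than in Neurog3-high pools, at 42.1 ± 9.47 CPM and 116 ± 58.7 CPM (-1.31 ± 0.32, adjusted p = 0.0359), in 6 of 13 alternatives, and was likewise lost without any of the 3 stages (adjusted p = 0.0923, 0.0688 and 0.296).

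The genes whose level followed each member most closely over the 289 Ngn3Cre cells, among 13759 genes, are given as a description. Vwa5b2 had the highest correlations outside the chromosome 12 pair, with Baiap3 (0.842) and Slc38a5 (0.819), of which Slc38a5 encodes a glutamine transporter. Dbpht2 was next closest to Slc38a5 (0.716) and Baiap3 (0.711), and 1700086L19Rik to Hmgn3 (0.724) and Vwa5b2 (0.708). Gnao1 was closest to Gatsl2 (0.729), Abcc8 (0.723), which encodes a subunit of the ATP-sensitive potassium channel, and Disp2 (0.707). Sphkap was closest to Pax6 (0.624), an endocrine transcription factor, Pak3 (0.618) and Pyy (0.589), which encodes peptide YY. Lrrtm3 was closest to Gng4 (0.65), Rgs17 (0.65), a regulator of G protein signalling, and Irs4 (0.635). Pla2g2f and Ttll7 followed no gene closely, with highest values of 0.532 (Baiap3) and 0.492 (Clps). Between members the lowest value was that of Lrrtm3 with Sphkap, 0.064, and correlations of the members with a cell's log2 reads were -0.006 to 0.116. The cells share pools, libraries and cell states.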

How the data were processed

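The authors deposited 1 table of counts (unscaled whole reads) and 1 table of TPM for the same cells. The submitters' processing notes name HISAT2 2.1.0, Trimmomatic 0.39 and FastQC 0.11.9, and the builds GRCm38 and mm10. Not given in the sources used here are the counter, its annotation, any filter on cells, and whether strand or molecular identifiers were used. The members, gene lists and tests were chosen with earlier results of these data known.

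Counts were summed per genotype and stage, and per state and stage in Ngn3Cre cells (pools of at least 10 and 5 cells). Pools were tested in R 4.3.3 by the quasi-likelihood test of edgeR 4.0.16, after TMM scaling and the tool's default filter of low genes. P-values were adjusted over all genes tested by Benjamini-Hochberg, with a threshold of 0.05, and fits had genotype (or state) and stage as factors. The HM pool of 15 somites is alone at its stage and carries no weight in contrasts with stage as a factor. Leaving out the HM or the HZ pool of 18 somites likewise leaves the other without weight, so these alternatives are nearly the same. Slopes per somite were fitted per genotype. With stage as a factor, p-values measure how unevenly a genotype or state difference ran across the stages. Residual degrees of freedom were 4 for genotypes and 6 for states. In the slope fit, p-values measure the scatter of pools around the fitted lines. No embryo is shared between stages, but the state pools of a stage were split from the same group of cells and may share embryos. Differences between states were thus not tested against the spread between embryos. Alternatives were DESeq2 1.42.0 on the same pools and limma 3.58.1 on log2(mean TPM + 1). The scripts were tested on simulated data. Genes were named by a fixed rule: the 8 members, Neurog3, Fev and Gcg, each relative or partner past the threshold, otherwise the most abundant of its family, and the 3 closest genes of each member, of which 1 is not reported here. Cells of any depth were kept, and no doublet caller was run. Cells with neural crest markers had at least 50 CPM of 7 such genes summed. Promoter sequences came from RefSeq (GRCm38.p6), where all 8 members matched. Protein sequences were not used here.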

Additional observations from a re-analysis of the deposited data

Results flagged for a closer look

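Lrrtm3 at 1.69 CPM and Sphkap at 3.49 CPM in the HM pool of 15 somites (16 cells) stood far from the other HM pools, which had 0 to 0.249 CPM of Lrrtm3 and 0 to 0.326 CPM of Sphkap. Both values are in the same pool, and chance marks about 1 in 20 groups of this size. The pool has no HZ pool of its stage in the fits.

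The 3 pools with fewer than 10 cells, which entered no test, held more than 3 reads of some members. The HM pool of 27 somites (4 cells) did so for 5 members, among them Dbpht2 at 27.8 CPM, Gnao1 at 11.3 CPM and Vwa5b2 at 6.8 CPM. The Ngn3Cre pool of 18 somites (3 cells) did so for 3 members, among them Ttll7 at 135 CPM, all from 1 cell. The HZ pool of 15 somites (5 cells) did so for 4 members, among them Vwa5b2 at 33.9 CPM and Dbpht2 at 15.6 CPM. Dbpht2 in the small HM pool of 27 somites was above the small HZ pool of 15 somites, but these pools differ in stage. The tested HZ pools, of later stages than 15 somites, held 181 to 1008.6 CPM of Dbpht2.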

How the results depend on the processing

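The 8 members, chosen on this contrast, stayed past the threshold and lower in HM than in HZ in the 18 alternatives. Of paralogs and partners 5 were lower, 8 with DESeq2, 2 with the shared stages alone and 2 to 5 when 1 pool was left out. Members higher in Ngn3Cre than in HZ numbered 0, and 1 with DESeq2. Higher members at the Neurog3 step numbered 4, 2 without cells with neural crest markers, 2 with lower state thresholds, 6 with no filter on low counts, 5 with DESeq2 and 2 to 5 without 1 stage. At the Fev step 1 was higher, 2 with DESeq2, 2 with no filter on low counts, 2 with higher thresholds, 0 in HZ cells and 0 to 1 without 1 stage. In HZ cells no gene at all was past the threshold at that step. At the Gcg step 2 were lower, 1 without cells with neural crest markers, 0 with lower thresholds, 0 in HZ cells, 1 with low-Ghrl below-threshold cells alone and 1 without any 1 stage. Pla2g2f turned to 0.15 there in HZ cells. For Gcg-high against Neurog3-high, 2 were lower, 1 without cells with neural crest markers, 0 with lower thresholds, 0 in HZ cells, 1 with low-Ghrl cells and 0 to 1 without 1 stage, and 2 were higher, 1 in HZ cells and 1 to 2 without 1 stage. The cause was not tested.

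Over all genes, those lower in HM than in HZ numbered 71 (shared stages) to 1072 (DESeq2), beside 254, and those higher 0 to 314, beside 17. Between Ngn3Cre and HZ 0 to 704 were lower, beside 61, and 0 to 216 higher, beside 1. In the HZ slope DESeq2 called 273 lower and 167 higher, where edgeR called 0. The Neurog3 step gave 45 to 834 lower and 84 to 850 higher, the Fev step 0 to 294 and 0 to 177, the Gcg step 19 to 501 and 3 to 449, and Gcg-high against Neurog3-high 154 to 737 and 59 to 480. Shares of cells depended on the level that counts as present: with 1 read, Dbpht2 was in 35.7% of HM cells, 93.4% of Ngn3Cre cells and 75.2% of HZ cells. No paired analysis was possible because replicate numbers in the labels are serial numbers of cells and do not pair pools. Stage was a factor in every fit of states and genotypes, so pools of the same stage were already compared within it. With 3 stages per state, leaving 1 out ended many of the calls at the state steps, and members at a few reads per HM pool have levels near the limit of 3 reads.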

Other observations

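Cells with neural crest markers held reads of the 8 genes as well, but they were a mixture of states. The Ngn3Cre ones comprised 48 cells below all 3 state thresholds, 8 Neurog3-high, 3 Fev-high and 20 Gcg-high cells. The shares below are not split by state. Of 79 such Ngn3Cre cells, Dbpht2 was at 10 CPM or more in 70.9% (59.6 to 80.6), Gnao1 in 53.2% (41.6 to 64.5) and Sphkap in 21.5% (13.1 to 32.2). Of 32 such HZ cells, Dbpht2 was so in 68.8% (50 to 83.9), Gnao1 in 50% (31.9 to 68.1) and Sphkap in 21.9% (9.28 to 40). Gcg was at 10 CPM or more in 97.5% of these Ngn3Cre cells and 53.1% of these HZ cells. Intervals are exact (Clopper-Pearson, 95%) and cover counting error only.

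Cells below all 3 state thresholds and with little Ghrl had Dbpht2 in 55.2% of 58 Ngn3Cre cells (41.5 to 68.3) and 22.6% of 133 HZ cells (15.8 to 30.6), and Lrrtm3 in 12.1% of the Ngn3Cre and 5.26% of the HZ cells.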
